A study of Rattus norvegicus with 10 samples.

Results

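The DNAJ family of co-chaperones was followed across 5 heat histories of the rat left ventricle, as all genes whose symbol begins with Dnaja, Dnajb or Dnajc. The members were 39 of the 14324 genes measured, each by its brightest probe set among those that carry 1 gene symbol in the platform annotation: 4 Dnaja, 12 Dnajb and 23 Dnajc genes. A single member, Dnajb12, had more than 1 probe set, and its values were identical in both. No filter on low signal was applied, so all 39 members were tested.

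J proteins, also called HSP40s, carry a J domain that docks on an HSP70 chaperone and makes it hydrolyse ATP, so that HSP70 closes on the unfolded protein that the J protein has brought. Nucleotide exchange factors then reopen HSP70 and the client is released to fold, to be passed to HSP90 or to be degraded. The cytosol, the endoplasmic reticulum (ER) and the mitochondrion each have their own HSP70 and their own J proteins, and some J proteins serve a single task such as clathrin uncoating or histone delivery. Heart muscle, with long-lived contractile proteins under mechanical load, depends on this system, and human mutations in DNAJB4 and DNAJB6 cause muscle disease.

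Total RNA came from the cardiac left ventricle of Sabra rats, a laboratory strain, with 2 arrays for each of 5 groups and a separate biological pool of 5 animals on each array. Control rats were untreated and 1 month old. Heat began at 3 weeks of age in a 34 °C chamber: AC2d rats had 2 days of it and were 1 month old, and AC30 rats had 30 days and were 2 months old. DeAC rats followed the 30 days of heat with 30 days at 24 °C and were 3 months old, and ReAC rats then had 2 further days at 34 °C, also at 3 months. Only AC2d with control, and ReAC with DeAC, were of equal age. In every other comparison heat history and age cannot be told apart. Pooling leaves the spread between single animals unseen, and in ventricle tissue fewer cells of a type and less RNA per cell cannot be told apart.

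Values are log2 signals after quantile normalization, with control, AC2d, AC30, DeAC and ReAC each given as pool 1 and pool 2. Changes are differences of group means (n = 2 pools in each) with the standard error (SE) from limma, which estimates 1 moderated spread for each gene from the 10 arrays together. The threshold for a call was 0.05 on the p-value after Benjamini-Hochberg adjustment over all 14324 genes. The precision is limited by the number of arrays. Between the control pools 57 genes lay more than 1 log2 unit apart, where no further group had more than 1 such gene. Gaps over 0.25 were not particular to control: 12.3% of genes had one there, 6.2% in AC2d, 14.7% in AC30, 12.5% in DeAC and 7.21% in ReAC. Among members, 8 of 39 differed by more than 0.25 between the control pools, with the widest gap of 0.59 for Dnajc6, the clathrin-uncoating protein auxilin, and at most 3 did so in any other group.

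Control regions are shown first, because they are where the classical inducers of the family act. The heat shock factor binds inverted GAA units, searched here as GAANNTTC and TTCNNGAA on both strands, and the ER stress element was searched as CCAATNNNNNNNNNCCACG on both strands. Of the 39 members, 30 matched a RefSeq promoter (assembly GRCr8, 250 bases before to 50 after the start). The heat shock pattern was present in 6 of these 30 (20.0%), against 15.9% of 33469 rat promoters, and the ER pattern in 1 of 30 (3.33%), against 0.0657%. Dnajb1, the classical heat-inducible HSP40, held 2 heat shock matches near its start, beginning at positions -11 and 18. Dnaja1, a general cytosolic J protein, held 3, at -181, 10 and 15, the last pair overlapping. Dnajc3, an ER co-chaperone that inhibits the kinase PERK, held the ER pattern at -133. The other promoters with a heat shock match belonged to Dnajb6, Dnajc18, Dnajc27 and Dnajc5g. The windows of Dnajb1 (chr19:41431092-41431391, minus strand), Dnaja1 (chr5:60638154-60638453, plus strand) and Dnajc3 (chr15:102432417-102432716, plus strand) are printed 5′ to 3′ along the gene, with the matches in capitals. A match describes the letters and is not evidence of binding.
Dnajb1: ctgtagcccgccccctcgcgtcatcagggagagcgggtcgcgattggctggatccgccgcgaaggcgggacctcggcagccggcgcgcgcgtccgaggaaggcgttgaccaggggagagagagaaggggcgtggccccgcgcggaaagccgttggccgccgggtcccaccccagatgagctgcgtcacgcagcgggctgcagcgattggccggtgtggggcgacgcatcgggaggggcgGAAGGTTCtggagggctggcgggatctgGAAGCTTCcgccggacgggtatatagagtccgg
Dnaja1: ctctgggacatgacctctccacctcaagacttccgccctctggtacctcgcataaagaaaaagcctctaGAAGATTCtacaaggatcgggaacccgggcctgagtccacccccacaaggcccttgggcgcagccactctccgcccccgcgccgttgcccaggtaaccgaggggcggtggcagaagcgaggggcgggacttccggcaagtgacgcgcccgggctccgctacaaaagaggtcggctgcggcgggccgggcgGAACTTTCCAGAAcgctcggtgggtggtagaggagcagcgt
Dnajc3: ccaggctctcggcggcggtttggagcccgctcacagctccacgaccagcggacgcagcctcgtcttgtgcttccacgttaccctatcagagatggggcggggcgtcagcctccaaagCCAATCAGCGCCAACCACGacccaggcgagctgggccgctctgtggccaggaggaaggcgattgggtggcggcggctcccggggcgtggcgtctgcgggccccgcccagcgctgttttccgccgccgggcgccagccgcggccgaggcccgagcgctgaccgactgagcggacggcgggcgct

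Most members passed in no test, and a minority carried the calls. Mean signals ran from 3.45 for Dnajb7, a testis J protein at the 2.6th percentile of all genes, to 10.08 for Dnajb4, a cytosolic HSP40-like protein at the 94.9th percentile. In the F test among the 5 groups 10 of 39 members passed (25.6%), against 22.2% of all genes. Dnajb4 led them (adjusted p = 1.12e-05 in limma's F test), followed by Dnaja3 (adjusted p = 0.000981) and Dnajc11 (adjusted p = 0.00109), both mitochondrial. In the 7 single comparisons 13 members passed at least once (33.3%), against 26.2% of genes, and 4 did so at least 2 times (10.3%), against 14.6% of genes: Dnaja3, Dnajb1, Dnajb4 and Dnajc11. Dnajc21 and Dnajc27 passed in the F test alone. That made 15 members (38.5%) with a pass in the F test or a comparison, beside 27.8% of genes, and 24 members passed nowhere.

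The count differed among the comparisons. After 2 days of heat 0 of 39 members passed against control, where 2.53% of all genes did, and at an unadjusted p under 0.05 there were 7 members (17.9%) beside 13.7% of genes. After 30 days of heat 3 members passed (7.69%), 1 higher and 2 lower, against 8.53% of genes, of which 3.57% were higher and 4.96% lower. In DeAC 3 members were higher than in control and 0 lower, beside 8.22% of genes, 4.45% higher and 3.77% lower. In ReAC 5 members passed against control (12.8%), 3 higher and 2 lower, beside 10.9% of genes, 5.63% higher and 5.28% lower. These shares lay near those of all genes.

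DeAC against AC30 held the most calls. Of 39 members 8 passed (20.5%), against 17.3% of all genes. Higher in DeAC were 6 members (15.4%), where 9.85% of genes were, and lower were 2 (5.13%), where 7.45% were. Both DeAC pools lay above both AC30 pools in 19 members (48.7%), against 28.2% of genes, and below them in 6 members (15.4%), against 24.6%. The median member differed by 0.11 log2 units and the median gene by 0.01. The medians of members were -0.07 in AC30 minus control, 0.03 in DeAC minus control and -0.07 in ReAC minus DeAC, with medians of all genes between -0.01 and 0.00. AC30 was the lowest group for 14 of 39 members (35.9%), against 21.0% of genes, and DeAC was the highest for 10 (25.6%), against 24.1% of genes.

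**Figure D1:**
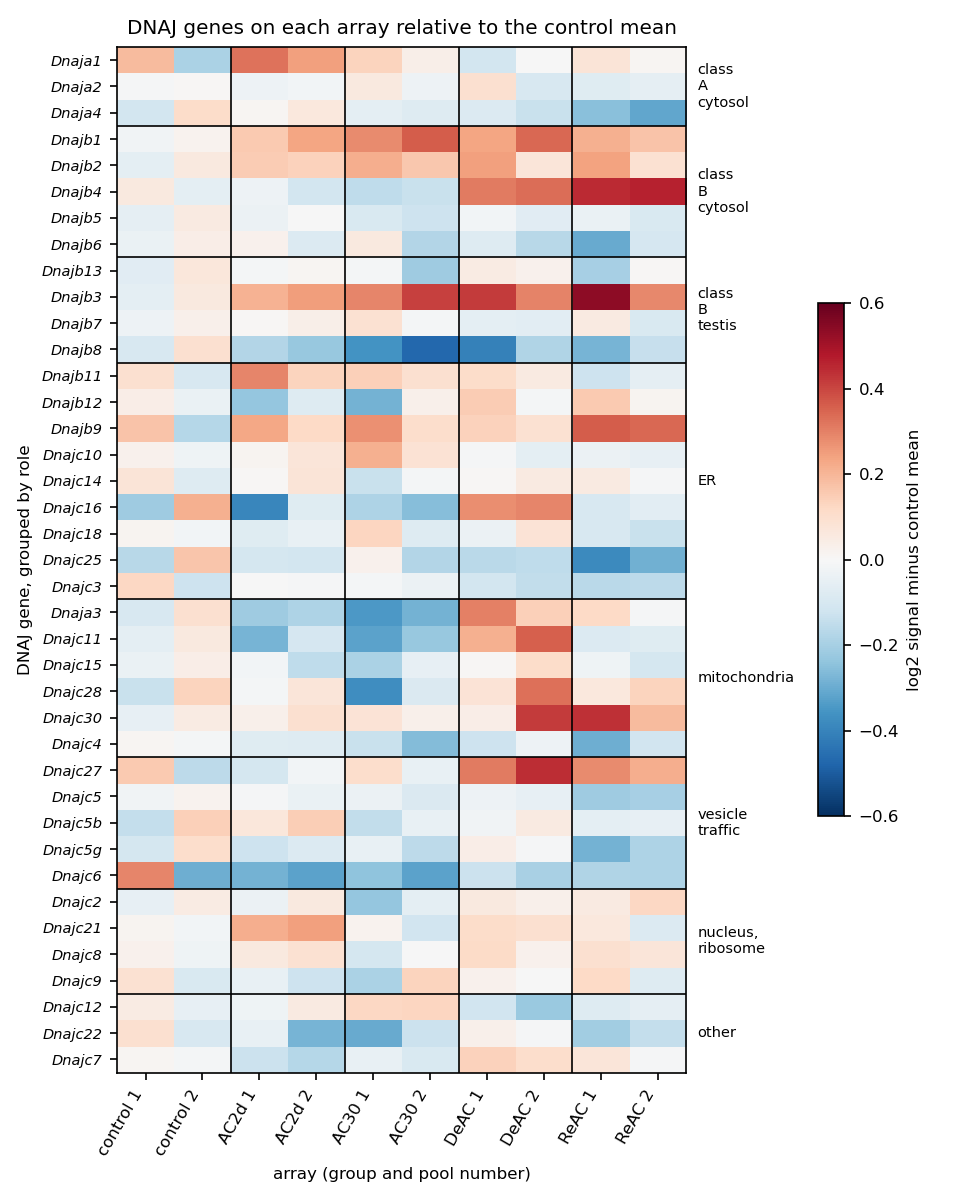
Heat map of the 39 DNAJ genes (rows, grouped by compartment or role) on the 10 arrays (columns, 2 pools for each group); colour gives the log2 signal minus the mean of the control pools. In the rows of Dnaja3 and Dnajc11 the AC30 columns are blue and the DeAC columns red, and in the row of Dnajb4 the DeAC and ReAC columns are red and the AC30 columns blue.

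Among the class B proteins of the cytosol, Dnajb4 changed most. Its signal was 10.02 and 9.90 in control, 9.93 and 9.85 in AC2d, 9.81 and 9.83 in AC30, 10.27 and 10.30 in DeAC, and 10.41 and 10.42 in ReAC. All 4 pools from the 3-month-old rats lay above all 6 pools from the younger rats. In AC30 the difference from control was -0.14 ± 0.05 without passing (adjusted p = 0.13). Against control the rise was 0.32 ± 0.05 in DeAC (adjusted p = 0.00217) and 0.45 ± 0.05 in ReAC (adjusted p = 9.04e-05), and against AC30 the DeAC level was higher by 0.46 ± 0.05 (adjusted p = 4.67e-05). ReAC and DeAC, the groups of equal age, differed by 0.13 ± 0.05, which did not pass (adjusted p = 0.217). The 2 calls against control held in every alternative run, with a range of 0.26 to 0.50 in DeAC and 0.40 to 0.56 in ReAC.

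Dnajb1 had another course, low in control and higher in every other group. The signal was 7.32 and 7.36 in control, 7.50 and 7.58 in AC2d, 7.62 and 7.71 in AC30, 7.58 and 7.69 in DeAC, and 7.56 and 7.52 in ReAC. The 8 pools from heat-exposed rats all lay above the 2 control pools. The rise passed in AC30 (0.32 ± 0.08, adjusted p = 0.0201) and in DeAC (0.29 ± 0.08, adjusted p = 0.0341). It did not pass in AC2d (0.20 ± 0.08, adjusted p = 0.253) or in ReAC (0.19 ± 0.08, adjusted p = 0.136). The AC30 call was lost without either control pool or either AC30 pool (adjusted p 0.0535 to 0.0882). The DeAC call was lost without any 1 array outside AC30 (0.0543 to 0.222).

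The remaining class B proteins of the cytosol, Dnajb2, Dnajb5 and Dnajb6, passed in no comparison. Dnajb5, an HSP40-like protein known from heart and muscle, read 8.39 and 8.50 in control, 8.41 and 8.45 in AC2d, 8.36 and 8.32 in AC30, 8.43 and 8.38 in DeAC, and 8.41 and 8.35 in ReAC, and its groups overlapped widely. Dnajb6, which keeps Z-disc proteins from aggregating, read 9.21 and 9.29 in control and 8.95 and 9.15 in ReAC, a difference of -0.20 ± 0.08 (adjusted p = 0.161).

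The class A proteins bind clients through a zinc finger region. Dnaja4, known as an abundant J protein of heart and skeletal muscle, read 9.26 and 9.49 in control, 9.39 and 9.44 in AC2d, 9.32 and 9.30 in AC30, 9.29 and 9.24 in DeAC, and 9.12 and 9.06 in ReAC. Both ReAC pools lay below all 8 others. It fell by 0.28 ± 0.07 against control (adjusted p = 0.0173), a call lost without control pool 2 (-0.17, adjusted p = 0.142), ReAC pool 1 (0.0672) or ReAC pool 2 (0.137). Dnaja1 read 8.76 and 8.38 in control, 8.89 and 8.82 in AC2d, 8.70 and 8.60 in AC30, 8.46 and 8.57 in DeAC, and 8.64 and 8.58 in ReAC. Its control pools were 0.38 apart, wider than any difference of its group means, and the AC2d difference of 0.29 ± 0.10, the highest of any member there, did not pass (adjusted p = 0.174). Without control pool 1 that difference was 0.48 with an adjusted p of 0.00254. Dnaja2 passed nowhere.

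**Figure D2:**
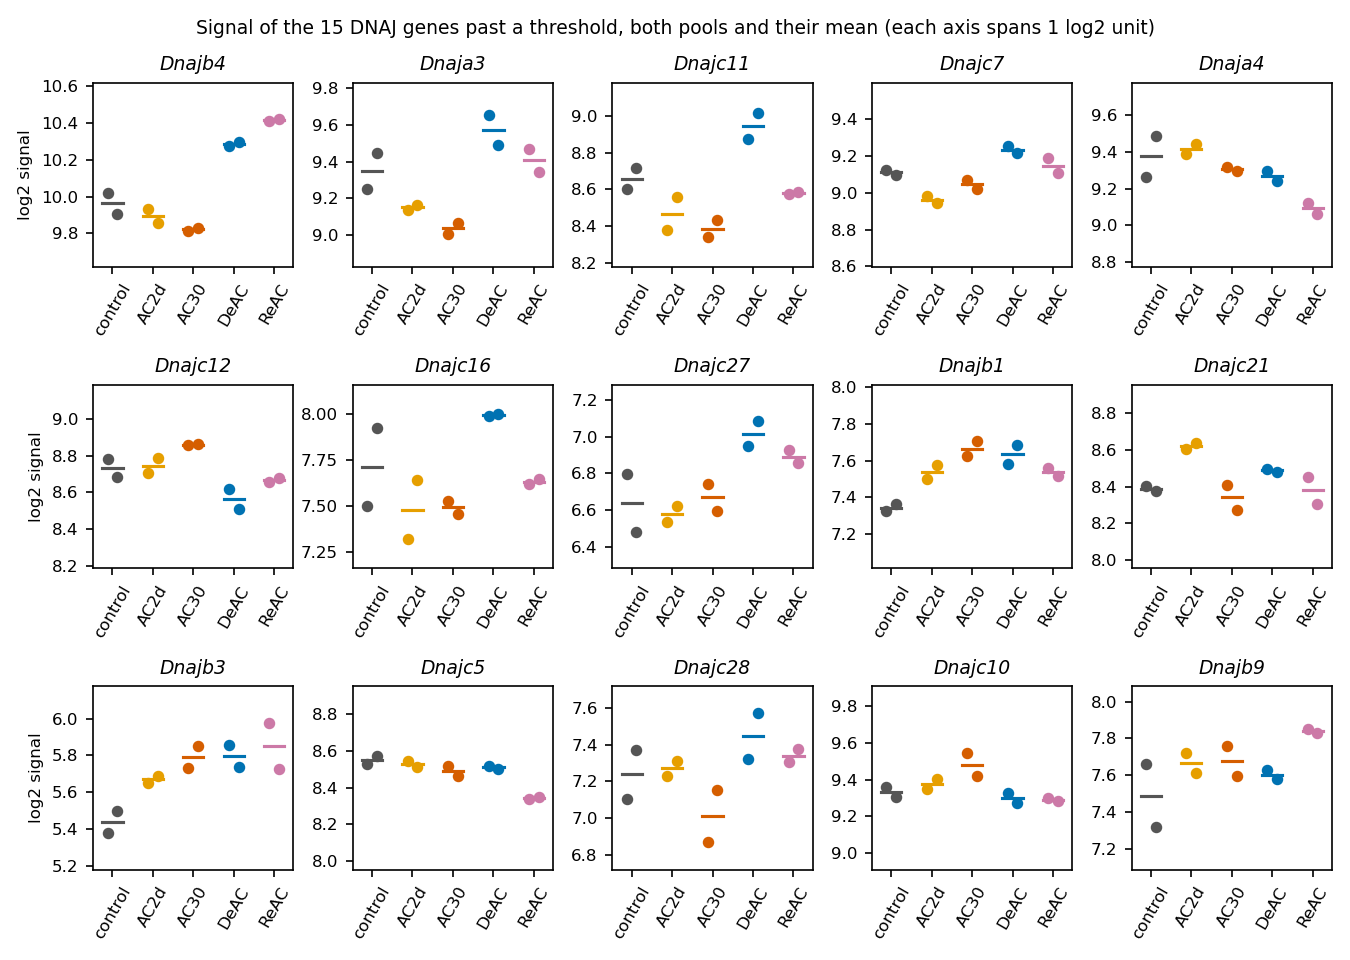
Log2 signal (vertical axes, each spanning 1 log2 unit) of the 15 DNAJ genes that passed in the F test or in a comparison, by group; points are the 2 pools and bars their mean. Dnajb4 is high in DeAC and ReAC alone, Dnaja3 and Dnajc11 are lowest in AC30 and highest in DeAC, and Dnajb1 is lowest in control.

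Among the roles, the mitochondrial J proteins had the highest median in DeAC against AC30. All 6 measured were higher in DeAC than in AC30, with a median of 0.31, where 51.5% of all genes lay above 0. Of the 6, 3 passed, beside 9.85% of genes that passed as higher. All 5 vesicle proteins (median 0.12) and all 4 of nucleus and ribosome (median 0.14) also lay above 0 there, and 0 of these passed. In AC30 against control the median of the mitochondrial J proteins was -0.21 with 2 lower and 0 higher, beside 4.96% of genes lower. In DeAC against control it was 0.21 with 1 higher and 0 lower, beside 4.45% of genes higher. Dnaja3 (Tid1), the matrix partner of mitochondrial HSP70 whose loss in mouse heart causes dilated cardiomyopathy, read 9.25 and 9.45 in control, 9.14 and 9.17 in AC2d, 9.01 and 9.07 in AC30, 9.65 and 9.49 in DeAC, and 9.47 and 9.35 in ReAC. Both DeAC pools were the highest of the 10 and both AC30 pools the lowest. Dnaja3 fell by 0.31 ± 0.07 in AC30 against control (adjusted p = 0.0194) and was higher by 0.54 ± 0.07 in DeAC than in AC30 (adjusted p = 0.000239). The first of these calls was lost without control pool 2 (-0.22, adjusted p = 0.153) or AC30 pool 1 (-0.28, 0.13).

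Dnajc11, a protein of the complex that shapes the cristae, was likewise lowest in AC30 and highest in DeAC. It read 8.60 and 8.72 in control, 8.38 and 8.56 in AC2d, 8.34 and 8.43 in AC30, 8.87 and 9.02 in DeAC, and 8.58 and 8.59 in ReAC. The DeAC pools stood apart above all others. It was the member with most calls: -0.27 ± 0.08 in AC30 against control (adjusted p = 0.0446), 0.29 ± 0.08 in DeAC against control (0.0366), 0.56 ± 0.08 in DeAC against AC30 (0.000217) and -0.36 ± 0.08 in ReAC against DeAC (0.0193). The last was the sole call of a member in either comparison of equal age: 1 of 39 members (2.56%) passed in ReAC against DeAC, beside 3.91% of genes. This call was lost with the values as deposited, with arrays shifted to a common median, without a mean-variance trend and with atrial marker level as a covariate. It was lost without DeAC pool 2 (-0.29, adjusted p = 0.173), ReAC pool 1 (0.149) or ReAC pool 2 (0.13). The AC30 call was lost without control pool 2 (0.236), AC30 pool 1 (0.233), AC30 pool 2 (0.0597) or either ReAC pool (0.0716), and the DeAC call without control pool 1 (0.16), DeAC pool 2 (0.271) or either ReAC pool (0.0606).

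Dnajc28, a mitochondrial J protein of little known function, read 7.11 and 7.37 in control, 7.23 and 7.31 in AC2d, 6.87 and 7.15 in AC30, 7.32 and 7.57 in DeAC, and 7.30 and 7.37 in ReAC. It was higher in DeAC than in AC30 by 0.44 ± 0.12 (adjusted p = 0.0212), lost without AC30 pool 1 (0.29, adjusted p = 0.21) or DeAC pool 2 (0.31, 0.205). Dnajc15, Dnajc30 and Dnajc4 differed by 0.12 to 0.18 in the same direction and did not pass.

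The partners of these proteins were read beside them. Hspa9, the mitochondrial HSP70, fell by 0.20 ± 0.05 in AC30 against control (adjusted p = 0.0215) and was higher by 0.27 ± 0.05 in DeAC than in AC30 (adjusted p = 0.00133). Grpel1, its nucleotide exchange factor, was higher in DeAC than in AC30 by 0.54 ± 0.08 (adjusted p = 0.000234), with 8.17 and 8.08 in AC30 and 8.64 and 8.68 in DeAC. Trap1, the mitochondrial HSP90, was higher by 0.46 ± 0.07 (adjusted p = 0.000523). Pam16 and Hscb, mitochondrial J-related proteins under other names, did not pass. In ReAC against DeAC Grpel1 fell by 0.30 ± 0.08 (adjusted p = 0.043), a call lost without any 1 of the AC2d, DeAC or ReAC arrays (0.0731 to 0.37). The AC30 call of Hspa9 was lost without control pool 2 (0.0847) or AC30 pool 2 (0.118).

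**Figure D3:**
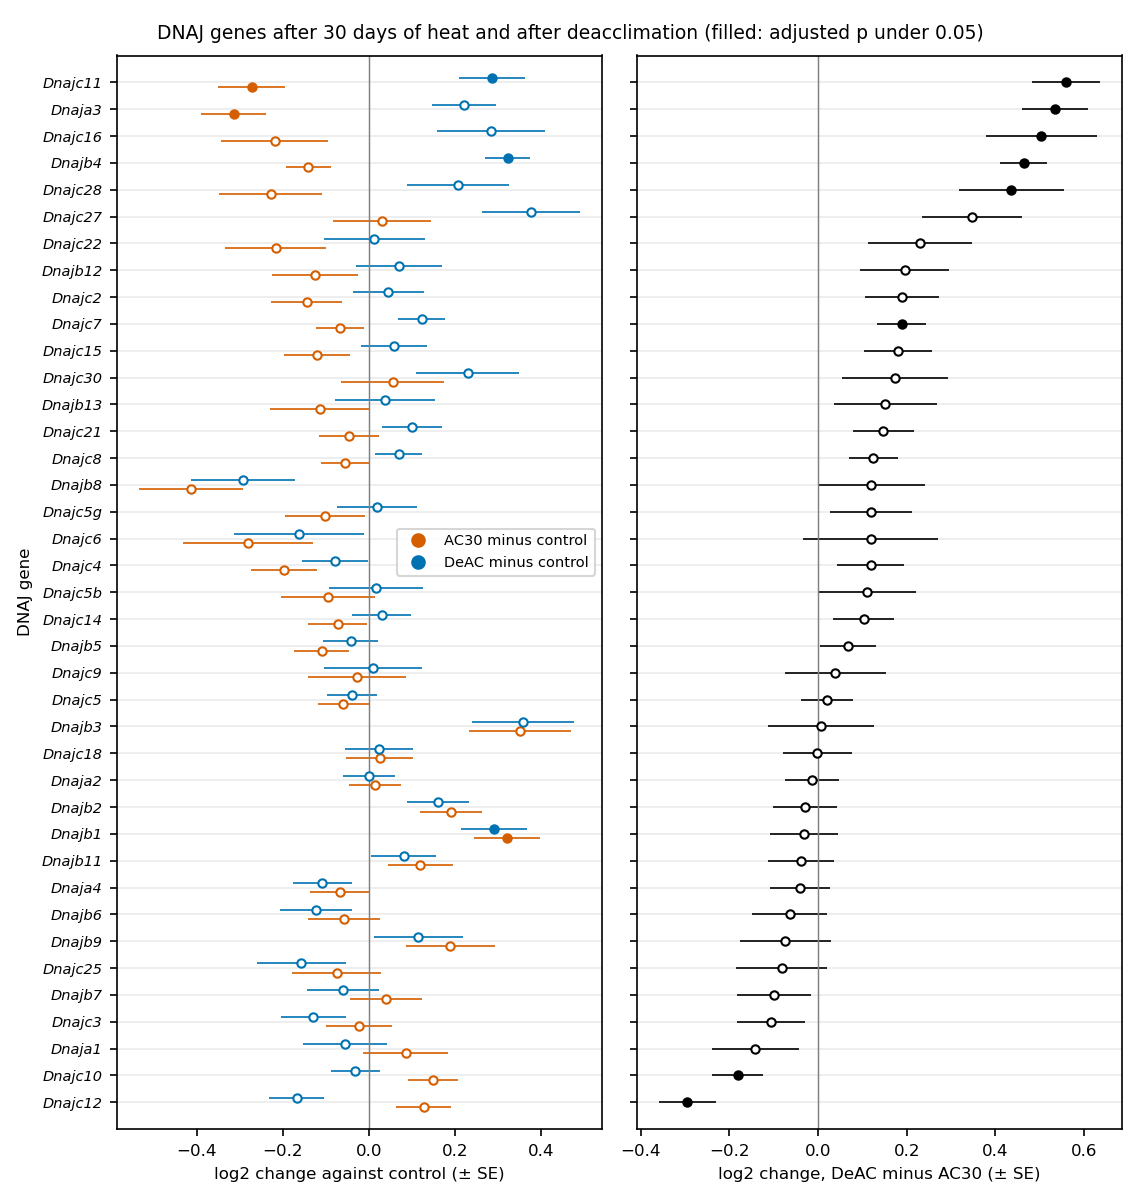
Log2 change of the 39 DNAJ genes with its SE, in AC30 and in DeAC against control (left) and in DeAC against AC30 (right); filled points passed at an adjusted p under 0.05. Dnajc11, Dnaja3, Dnajc16, Dnajb4 and Dnajc28 are filled at the upper end on the right, and Dnajc10 and Dnajc12 at the lower end; the left comparisons share the control pools.

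The J proteins of the ER did not move as 1 group. Of 9 measured, 1 was higher and 1 lower in DeAC than in AC30, beside 9.85% and 7.45% of all genes. Their median there was -0.04, and 0 passed in AC30 or DeAC against control. Dnajc10 (ERdj5), a reductase that opens wrong disulfide bonds, read 9.36 and 9.31 in control, 9.35 and 9.40 in AC2d, 9.54 and 9.42 in AC30, 9.33 and 9.27 in DeAC, and 9.30 and 9.28 in ReAC. The AC30 pools were the highest of the 10, and DeAC was lower than AC30 by 0.18 ± 0.06 (adjusted p = 0.0455). That call was lost without 1 array of AC2d, DeAC or ReAC or without AC30 pool 1 (0.0677 to 0.307). When arrays were shifted to a common median in place of quantile normalization the difference was -0.03.

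Dnajc16, a membrane protein with a J and a thioredoxin-like domain, went the other way. It read 7.50 and 7.93 in control, 7.32 and 7.64 in AC2d, 7.53 and 7.46 in AC30, 7.99 and 8.0 in DeAC, and 7.62 and 7.65 in ReAC. DeAC exceeded AC30 by 0.50 ± 0.12 (adjusted p = 0.0125), lost without either AC30 pool or either DeAC pool (0.0517 to 0.0767). ReAC was lower than DeAC by 0.36 ± 0.12 without passing (adjusted p = 0.144), and without control pool 1 or 2 this difference passed (0.0295 and 0.0306), although neither pool enters it other than through the spread.

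Dnajb9 (ERdj4), a partner of the ER HSP70 and a target of the unfolded protein response factor XBP1, read 7.66 and 7.32 in control, 7.72 and 7.61 in AC2d, 7.76 and 7.59 in AC30, 7.63 and 7.58 in DeAC, and 7.85 and 7.83 in ReAC. Both ReAC pools were above the 8 others. The rise against control was 0.35 ± 0.10 (adjusted p = 0.0424). It was 0.18 without control pool 2 (adjusted p = 0.321), and the call was also lost without 1 array of AC2d, DeAC or ReAC (0.0589 to 0.195). Against DeAC, at equal age, the difference of 0.24 ± 0.10 did not pass (adjusted p = 0.264).

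Dnajb11 (ERdj3), a secreted and luminal partner of the same HSP70, read 8.78 and 8.59 in control, 8.98 and 8.82 in AC2d, 8.83 and 8.78 in AC30, 8.79 and 8.74 in DeAC, and 8.56 and 8.63 in ReAC. Dnajc3, the gene with the ER stress pattern printed above, read 8.51 and 8.27 in control, 8.39 and 8.38 in AC2d, 8.38 and 8.35 in AC30, 8.28 and 8.24 in DeAC, and 8.23 and 8.23 in ReAC. Neither passed in any comparison or in the F test.

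The ER folding list, chosen with earlier results of these data known, is given beside the ER J proteins. Of 18 genes measured 3 were higher and 0 lower in AC30 than in control, and in DeAC against AC30 1 was higher and 8 were lower, with a median of -0.19. Of all genes 3.57% were higher and 4.96% lower in the first of these comparisons, and 9.85% and 7.45% in the second. Hspa5 (BiP), the HSP70 that the ER J proteins serve, rose by 0.21 ± 0.04 in AC30 against control (adjusted p = 0.00917) and was lower by 0.26 ± 0.04 in DeAC than in AC30 (adjusted p = 0.00101). The count lower was 5 to 8 over the fits without 1 array, with the 5 reached without DeAC pool 1, where the calls of Hsp90b1 (adjusted p = 0.0988), Calr (0.102) and Manf (0.23) were lost. Pdia6, a disulfide isomerase, was 10.31 in both AC30 pools and 9.88 in both DeAC pools, a difference of -0.43 ± 0.06 (adjusted p = 0.000231). Herpud1, of the ER degradation pathway, was the gene that rose, by 0.49 ± 0.06 (adjusted p = 7.7e-05). The AC30 call of Hspa5 was lost without control pool 2 (0.0693) or AC30 pool 1 (0.0697). In AC2d, DeAC and ReAC against control the list had 1, 2 and 2 higher and 0 lower. Of all genes 4.45% were higher in DeAC and 5.63% in ReAC, and 2.53% passed in either direction in AC2d. Over the fits without 1 array the counts higher against control were 0 to 4 in AC2d, 2 to 6 in AC30, and 1 to 2 in DeAC and in ReAC.

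**Figure D4:**
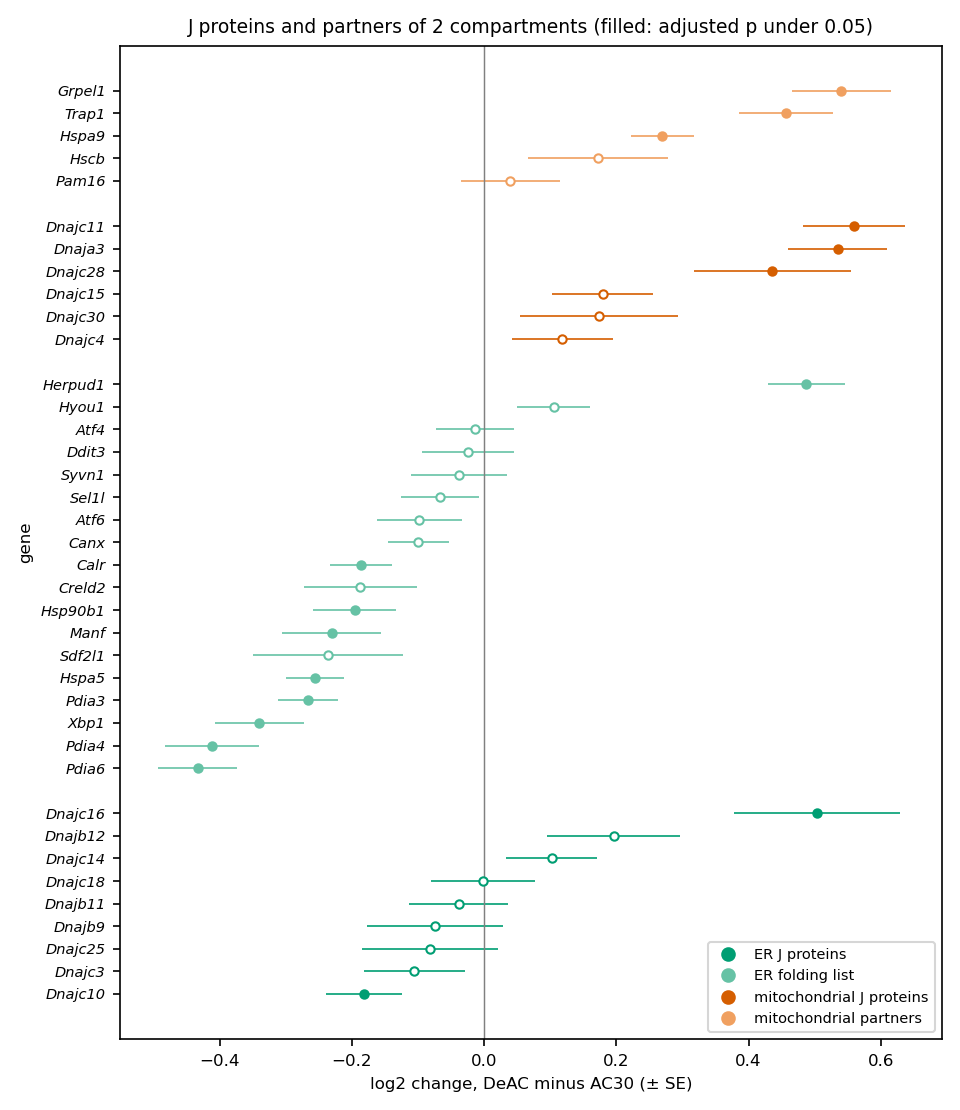
Log2 change in DeAC against AC30, with its SE, of the ER J proteins, the ER folding list, the mitochondrial J proteins and their mitochondrial partners; filled points passed at an adjusted p under 0.05. All mitochondrial J proteins and partners lie to the right of 0, and 16 of the 18 ER folding genes lie to the left, while the ER J proteins spread from Dnajc10 at -0.18 to Dnajc16 at 0.50.

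Other members had single calls. Dnajc12, a co-chaperone of the aromatic amino acid hydroxylases, read 8.78 and 8.68 in control, 8.71 and 8.79 in AC2d, 8.86 and 8.86 in AC30, 8.62 and 8.51 in DeAC, and 8.66 and 8.68 in ReAC. It was lower in DeAC than in AC30 by 0.30 ± 0.06 (adjusted p = 0.0053), lost without DeAC pool 2 (-0.24, adjusted p = 0.067) and, at -0.15, with arrays shifted to a common median (adjusted p = 0.288). Dnajc7 (TPR2), which can pass clients back from HSP90 to HSP70, read 9.13 and 9.10 in control, 8.98 and 8.94 in AC2d, 9.07 and 9.02 in AC30, 9.25 and 9.22 in DeAC, and 9.19 and 9.11 in ReAC. It was highest in DeAC and lowest in AC2d. The DeAC level exceeded AC30 by 0.19 ± 0.06 (adjusted p = 0.0305), a call lost without either AC30 pool or either DeAC pool (0.0634 to 0.137).

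Dnajc5, the cysteine string protein that chaperones the vesicle fusion machinery, had its lowest pools in ReAC. It read 8.53 and 8.57 in control, 8.54 and 8.51 in AC2d, 8.52 and 8.46 in AC30, 8.52 and 8.50 in DeAC, and 8.34 and 8.35 in ReAC. The fall was 0.21 ± 0.06 against control (adjusted p = 0.0397). Its call was lost in 8 of the 10 fits without 1 array, all but those without an AC30 pool (adjusted p 0.0523 to 0.193), and the difference was -0.09 with arrays shifted to a common median. Dnajb3, a J protein known from testis and dim here (35.9th percentile), read 5.38 and 5.50 in control, 5.65 and 5.69 in AC2d, 5.73 and 5.85 in AC30, 5.86 and 5.74 in DeAC, and 5.98 and 5.73 in ReAC. All 8 heat-exposed pools exceeded the control pools. The rise passed in ReAC (0.41 ± 0.12, adjusted p = 0.0417) and not in AC30 (0.35 ± 0.12, 0.0941) or DeAC (0.36 ± 0.12, 0.0848). The ReAC call was lost without either pool of control, AC2d or ReAC (0.0535 to 0.327).

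Dnajc27, a small GTPase with a J domain, passed in the F test alone (adjusted p = 0.0409). It read 6.80 and 6.48 in control, 6.54 and 6.62 in AC2d, 6.74 and 6.60 in AC30, 6.95 and 7.09 in DeAC, and 6.93 and 6.86 in ReAC. The 4 pools of 3-month-old rats lay above the 6 others, by 0.38 ± 0.11 in DeAC against control (adjusted p = 0.0585). Without control pool 1 this difference was 0.53 and passed (adjusted p = 0.0161), and against AC30 the difference of 0.35 ± 0.11 (0.051) passed without either control pool (0.0207 and 0.0199).

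Dnajc9 escorts histones H3 and H4 and is known to follow DNA replication in dividing cells. It read 7.22 and 7.04 in control, 7.08 and 7.0 in AC2d, 6.94 and 7.26 in AC30, 7.15 and 7.12 in DeAC, and 7.25 and 7.05 in ReAC, and passed nowhere (adjusted p = 0.925 in limma's F test). Of 16 measured genes of an S phase and mitosis list, 12 were lower than control in AC2d, 12 in AC30, 11 in DeAC and 13 in ReAC, and 0 were higher in any of these. Of all genes 4.96%, 3.77% and 5.28% were lower in AC30, DeAC and ReAC, and 2.53% passed in either direction in AC2d.

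The age-matched pairs allow the first 2 days of heat (AC2d against control) to be set beside the second (ReAC against DeAC). Equal age did not mean equal atrial signal. The log2 sum of 7 atrial markers was 14.59 and 12.74 in control and 14.77 and 14.84 in AC2d. It was 10.96 and 11.03 in DeAC and 14.07 and 14.08 in ReAC. Its part in either response was not tested beyond the covariate fit given below. In the first exposure, 0 of 39 members passed. In the second, Dnajc11 alone passed, and at an unadjusted p under 0.05 there were 9 members (23.1%), against 16.3% of genes. The test of the second response minus the first found 0 members, where 0.300% of genes passed, and at an unadjusted p under 0.05 it found 5 members (12.8%), against 8.22% of genes. Dnajb11 came nearest: it was higher by 0.21 ± 0.08 in the first exposure (adjusted p = 0.192) and lower by 0.17 ± 0.08 in the second (0.285), a difference of -0.38 ± 0.11 (adjusted p = 0.227). Without control pool 1 this difference was -0.48 and passed (adjusted p = 0.0466).

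Dnajc21, a factor of ribosome assembly, read 8.40 and 8.37 in control, 8.60 and 8.64 in AC2d, 8.41 and 8.27 in AC30, 8.50 and 8.48 in DeAC, and 8.45 and 8.31 in ReAC. The AC2d pools were the highest of the 10. The difference of 0.23 ± 0.07 in the first exposure did not pass (adjusted p = 0.115), nor did the change of response (-0.34 ± 0.10, adjusted p = 0.256). Without control pool 1, 4 members passed in the first exposure (Dnaja1, Dnaja3, Dnajb11 and Dnajc16), and without control pool 2 there was 1 (Dnajc6).

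**Figure D5:**
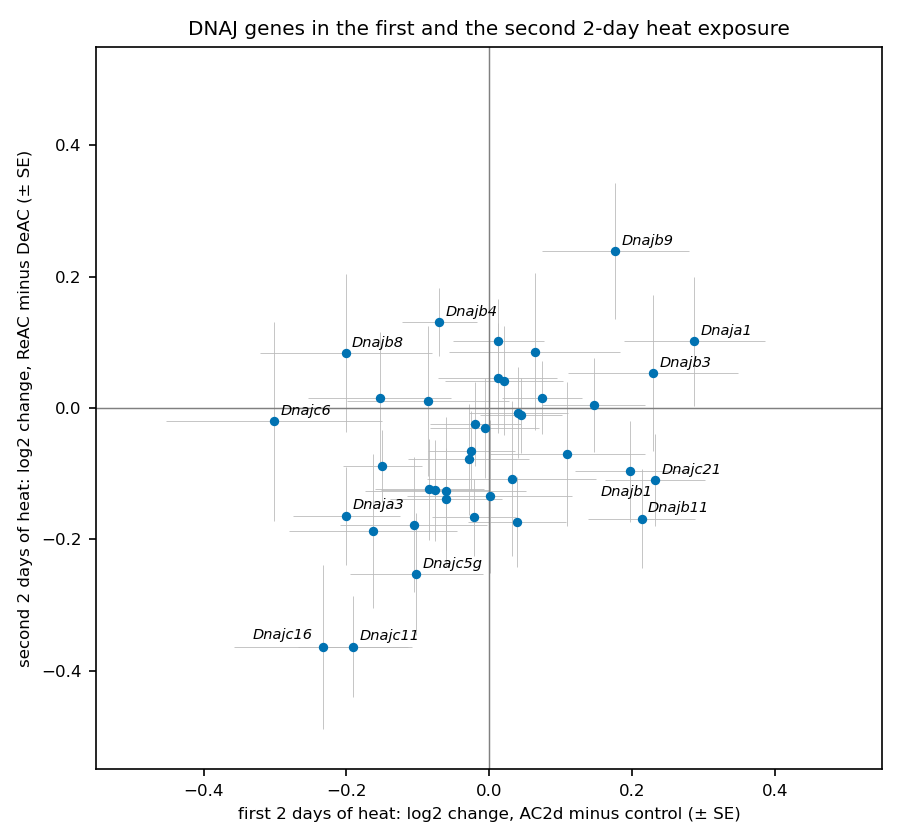
Log2 change of each of the 39 DNAJ genes in the first 2 days of heat (AC2d minus control, horizontal axis) and in the second (ReAC minus DeAC, vertical axis), with SE bars. Dnajc11 and Dnajc16 lie lowest, at -0.36 on the vertical axis, and Dnajb1, Dnajb11 and Dnajc21 lie right of 0 on the horizontal axis and below 0 on the vertical one.

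Around the J proteins, the wider chaperone system was read from lists chosen with earlier results known. In AC2d against control, 1 of 8 HSP70 chaperones, 1 of 12 nucleotide exchange factors and 3 of 15 genes of the HSP90 list were higher. In these lists 0 were lower, and 1 of 7 small heat shock proteins was lower. Of all genes 2.53% passed in either direction. The HSP70 gene was Hspa5, that of the ER, and Hspa1a, Hspa1b and Hspa1l of the HSP70 list were not measured. Without AC2d pool 2 all of the higher calls were lost. Without AC2d pool 1 the call of Hspa5, those of the HSP90 list and the lower one were lost. The Hspa5 call was also lost without control pool 2 or without any 1 DeAC or ReAC array. Hsph1 (HSP110), which reopens cytosolic HSP70, rose most, by 0.48 ± 0.08 (adjusted p = 0.00412), a call lost without AC2d pool 2 (0.0947). Stip1 (HOP), the bridge between HSP70 and HSP90, rose by 0.26 ± 0.05 (adjusted p = 0.0158), lost without AC2d pool 1 (0.0793) or pool 2 (0.209). Hspa8, the constitutive HSP70 that most cytosolic J proteins serve, passed nowhere (0.05 ± 0.04 in AC2d, adjusted p = 0.687), and neither did Hsp90aa1 (0.13 ± 0.05, 0.242).

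All-gene shares higher and lower against control were 3.57% and 4.96% in AC30, 4.45% and 3.77% in DeAC, and 5.63% and 5.28% in ReAC. For DeAC against AC30 they were 9.85% and 7.45%, and 3.91% of genes passed in either direction in ReAC against DeAC. In AC30 against control the counts higher and lower were 1 and 1 for HSP70, 1 and 0 for exchange factors, 2 and 0 for HSP90, and 0 and 2 for small heat shock proteins. Without AC30 pool 1 the first 3 of these lists had 0 higher. In DeAC against control they were 0 and 0, 4 and 0, 3 and 0, and 2 and 1. Without control pool 1, or without DeAC pool 2, these fell to 0 and 0, 1 and 0, 1 and 0, and 1 and 0. In ReAC against control they were 0 and 0, 2 and 1, 2 and 1, and 1 and 0. The counts of exchange factors and of the HSP90 list fell without control pool 2 or ReAC pool 1. Without control pool 2 a small heat shock protein also passed as lower. In DeAC against AC30 they were 1 and 1, 4 and 1, 3 and 3, and 3 and 1, but the HSP90 list had 0 lower without DeAC pool 2 and the small heat shock proteins 1 higher without DeAC pool 1. Hspb6 (HSP20), a small heat shock protein of the cardiomyocyte, was higher in DeAC than in AC30 by 0.46 ± 0.04 (adjusted p = 1.18e-05). In ReAC against DeAC they were 0 and 0, 0 and 1, 2 and 1, and 0 and 0, and without any 1 DeAC or ReAC array the HSP90 list had 0 higher. Of 3 heat shock factors, Hsf1 alone passed, higher in ReAC than in control by 0.24 ± 0.07 (adjusted p = 0.0477), and that call was lost without any 1 array outside AC30 (adjusted p 0.0552 to 0.304). Of 4 J domain genes under other names, 0 passed in any of the 7 comparisons. Fkbp5, of the HSP90 list, read 7.46 and 7.73 in control, 7.35 and 7.53 in AC2d, and 7.03 and 7.47 in AC30. It read 8.28 and 8.34 in DeAC and 8.88 and 8.88 in ReAC (adjusted p = 6.35e-06 in limma's F test). Among the exchange factors Bag3 (0.000119) and Hspa4l (0.000292) had the lowest adjusted p in the F test. Grpel1 (0.000866), Hsph1 (0.00109), Bag1 (0.00439), Bag4 (0.0232), Hyou1 (0.0332) and Hspbp1 (0.0358) passed there too. Bag2, Bag5, Hspa4 and Sil1 did not, and 22.2% of all genes passed. In the difference between the heat responses, 1 gene of these lists passed: Fkbp4 (FKBP52), a co-chaperone of HSP90 (-0.41 ± 0.08, adjusted p = 0.0445), lost without 1 array of AC2d, DeAC or ReAC (0.0851 to 0.27).

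Markers of other cells moved in the comparisons that held member calls. The log2 of the summed signal of 7 atrial markers was 14.59 and 12.74 in control, 14.77 and 14.84 in AC2d, 15.23 and 15.08 in AC30, 10.96 and 11.03 in DeAC, and 14.07 and 14.08 in ReAC. All 7 were lower in DeAC than in AC30 (median -4.88), and 5 of 7 rose again in ReAC (median 3.25). In DeAC against AC30, 6 of 6 fibroblast markers (median -0.65), 3 of 5 smooth muscle and 2 of 3 mesothelial markers were also lower. Of the 8 genes listed as ventricular markers 1 was higher and 0 lower. All lay at or above the 99.5th percentile, and their log2 sum was at least 15.87 on every array. That sum cannot show a steady ventricular share. Myh7 among them read 11.24 and 11.77 in control and 13.33 and 13.24 in ReAC. Of 9 adipocyte markers 3 were lower and 1 higher, of 3 endothelial markers 0 passed, of 3 red cell markers 2 were lower and 1 higher, and 1 of 6 macrophage markers was higher. In AC30 against control, where Dnaja3 and Dnajc11 fell, all 7 atrial markers (median 1.78), 4 of 6 fibroblast markers (median 0.34), 2 of 5 smooth muscle markers (with 1 lower) and 2 of 3 mesothelial markers were higher, and all 3 endothelial markers were lower (median -0.35). In DeAC against control 5 of 7 atrial markers were lower (median -2.82) and 4 of 6 macrophage markers higher. All 6 macrophage markers were higher in ReAC than in control. The part of these cells in the changes against control was not tested beyond the fit with an atrial covariate given next.

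With the atrial level as a covariate, 0 of 39 members and 0.663% of all genes passed in DeAC against AC30. The slope of that covariate rests on the differences between pools within groups. Of these the gap between the control pools was by far the widest. Those pools also differed in the mean log2 signal of the 9 adipocyte markers (7.42 and 6.29). The slope therefore cannot be read as atrial content alone. Dnajb4 was then higher in DeAC than in AC30 by 0.74 (adjusted p = 0.0725), Dnajc11 by 0.29 (0.874) and Dnaja3 by 0.04 (0.989), and Dnajc16 and Dnajc28 turned to -0.49 and -0.25. The 3 strongest of these calls, Dnaja3, Dnajb4 and Dnajc11, each held in all 10 fits without 1 array. In AC30 against control 1.56% of genes passed with the covariate and 8.53% without it, and the calls of Dnaja3, Dnajb1 and Dnajc11 were lost. In DeAC against control the shares were 1.64% and 8.22%. Dnajb1 and Dnajc11 lost their calls there and Dnajb4 kept its call. In ReAC against control they were 12.3% and 10.9%, and the call of Dnajc5 was lost. In AC2d against control they were 1.83% and 2.53%. In ReAC against DeAC they were 0.852% and 3.91%, and the call of Dnajc11 was lost. Dnaja1, Dnaja3, Dnaja4, Dnajb4, Dnajb9 and Dnajc16, which had no call in ReAC against DeAC, changed direction there. The part of atrial, fibroblast, smooth muscle and fat tissue in the member results was not tested beyond this fit.

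The authors' deposited table of fold changes against control lists 651 probe sets and 0 of the 39 members. For each probe set in that table the largest of the listed folds was at least 1.5, and the largest fold of a member against control in the limma fit was 1.37, for Dnajb4 in ReAC.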

How the data were processed

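Log2 signals of 27342 probe sets on 10 arrays were taken as deposited by the authors, who had extracted total RNA with Tri-reagent and hybridised biotin-labelled cDNA, per the labels' protocols. The sources used here do not give their summary and normalization of the probes. Their second deposited table holds signed fold changes against control, read as a score, and matched differences of the log2 group means within 0.05. The platform annotation gave 1 symbol to 15097 probe sets, several to 323 and none to 11922, and 15067 were found in RefSeq (GRCr8). The brightest probe set per gene was kept.

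Groups and pool numbers came from the labels. Values were quantile normalized across the arrays (medians as deposited 5.95 to 6.10) and fitted by lmFit of limma 3.58.1 under R 4.3.3 (1 mean per group, eBayes with a trend), with 5 residual and 8.31 prior degrees of freedom. The 7 comparisons and the F test were two-sided and adjusted over all 14324 genes by Benjamini and Hochberg, at 0.05. The fit was tested on simulated data. Over the 10 pairs of groups the deviations of same-numbered pools correlated between -0.0772 and 0.21, with 1 pair, AC30 with DeAC, above 0.1. The main fit did not pair the pools by number. Such correlations cannot show whether same-numbered pools shared a processing step.

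The members, the 7 pathway lists, the 10 marker lists, the roles and the tests were chosen with earlier results of these data known. Every member past the threshold is named, with a fixed set of 10 members and Hspa8, Hspa5 and Hsp90aa1. Of the other pathway genes past the threshold some are named, and not those with the smallest p in every list and comparison. Promoters and their start positions came from RefSeq (GRCr8). Alternatives were the values as deposited, a common median, no trend, no dim genes, all probe sets, an atrial covariate, the compared groups alone, a replicate block, thresholds of 0.01 and 0.1, and each array left out, where a lone pool was assumed to vary like the other groups.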

Additional observations from a re-analysis of the deposited data

Results flagged for a closer look

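For 8 members the AC30 and the DeAC change against control had opposite signs and the limma test of their difference passed, which is what singled them out. They are all 8 members that passed in DeAC against AC30 (20.5%, against 17.3% of genes), so the condition on signs removed none. The share of all genes that meets both conditions was not counted. Some of the changes were small, as for Dnajc10 with means of 9.33 in control and 9.30 in DeAC. DeAC minus AC30 was 0.54 for Dnaja3, 0.46 for Dnajb4, 0.56 for Dnajc11, 0.50 for Dnajc16, 0.44 for Dnajc28 and 0.19 for Dnajc7, and it was -0.18 for Dnajc10 and -0.30 for Dnajc12. Age differs between these groups (2 and 3 months), and the control pools cancel from the difference. For Fkbp4, the HSP90 co-chaperone, the second 2-day heat response minus the first was -0.41 and passed.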

How the results depend on the processing

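Of 20 called member changes 18 kept their direction in every alternative, 5 kept their call in every fit without 1 array, and 2, Dnajb4 in DeAC and in ReAC against control, kept it in every alternative. Of 87 counts of called members under settings other than leaving out an array, 54 stayed within 1.5 times. In AC30 minus control (3 members) the count was 0 at 0.01, 5 at 0.1, 1 with a common median, 1 with the atrial covariate, 1 with no trend and 0 with the groups alone. In DeAC minus control (3) it was 1 at 0.01, 6 at 0.1, 6 with a common median, and 1 each with all probe sets, the covariate, no trend and the groups alone. In ReAC minus control (5) it was 1 at 0.01, 3 with the values as deposited, 3 with a common median, 2 with all probe sets, 2 with no trend and 1 with the groups alone. In DeAC minus AC30 (8) it was 4 at 0.01 and 0 with the covariate. In ReAC minus DeAC (1) it was 2 with the groups alone and 0 at 0.01, with a common median, with the covariate, with no trend and as deposited. In AC2d minus control (0) it was 1 with the covariate. In the F test (10) it was 3 at 0.01, 5 as deposited, 5 with all probe sets, 6 with a common median and 3 with no trend. Without 1 array the counts ran from 0 to 4 in AC2d minus control, 0 to 6 in AC30 minus control, 1 to 5 in DeAC minus control, 1 to 6 in ReAC minus control, 3 to 9 in DeAC minus AC30, 0 to 2 in ReAC minus DeAC, 0 to 1 in the difference of the heat responses and 3 to 14 in the F test. A common median turned Dnajc11 in ReAC minus control to 0.045, and leaving out control pool 1 turned Dnajc9 in AC2d minus control to 0.0035 (-0.17 at the other end, without control pool 2). The covariate turned Dnajb9 to -0.050 in AC2d minus control and -0.13 in AC30 minus control, Dnajc28 to 0.026 in AC30 minus control, and Dnaja3 to -0.089 and Dnajc16 to -0.34 in DeAC minus control. It turned, in DeAC minus AC30, Dnajc16 to -0.49, Dnajc28 to -0.25, Hsp90b1 to 0.23, St13 to 0.13, Cdc37 to -0.15, Ppid to 0.23, Pdia3 to 0.025 and Xbp1 to 0.19. It turned, in ReAC minus DeAC, Dnaja1 to -0.56, Dnaja3 to 0.19, Dnaja4 to 0.21, Dnajb4 to -0.064, Dnajb9 to -0.36, Dnajc16 to 0.35 and St13 to -0.033. The cause of these shifts was not tested. With the pool number as a replicate block the count was 8 in DeAC minus AC30, 3 in AC30 minus control and 12 in the F test, and no count of members moved by more than 1.5 times. With 2 pools in a group, changes of dim members are least certain.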
